A study of Mus musculus with 10 samples.

Results

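The combination of MAL overexpression with Med23 knockdown was examined in 10T1/2 cells, a line of mouse embryonic fibroblasts able to turn into several mesenchymal lineages. For each gene the value with both treatments was set against what the 2 single treatments, added to each other, would give. The members are the 4 arrays of this cell line, of 10 arrays in the series, and the comparison covered 12440 of 18193 named genes. The control array came from untreated cells, and the other arrays from cells that overexpressed MAL, that had a Med23 knockdown, or that had MAL overexpression together with Med23 deficiency. All 4 cultures were kept in the same serum-containing medium and shared no other stated treatment. How MAL was expressed, how Med23 was depleted and when the cells were harvested was not given in the sources used here, nor was a control for the carrier of either treatment. Each condition had 1 array, so no value has a replicate error or a p-value. A difference between conditions therefore cannot be told apart from a difference between those particular cultures.

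MAL, whose gene is Mrtfa, is a coactivator of the transcription factor SRF. It is held in the cytoplasm by monomeric actin and enters the nucleus when actin polymerises, where SRF and MAL drive genes of the cytoskeleton and of smooth muscle contraction. Med23 is a subunit of Mediator, a large complex that carries signals from transcription factors to RNA polymerase II. Med23 is known as the contact of Elk1, a cofactor that competes with MAL for SRF at growth factor responsive genes. The arrays with both treatments ask whether MAL acts differently in cells with less Med23.

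The deposited values are log2 expression values, so 1 unit is a 2-fold difference. The non-additive value of a gene is its level with both treatments, minus the level with MAL, minus the level with the knockdown, plus the control level. It equals the MAL difference measured beside the knockdown minus the MAL difference measured alone. A value of 0 means that the fold changes of the single treatments multiplied in the combination. Genes were counted when this value was at least 1 or at most -1, and with 4 arrays for 4 conditions no residual degree of freedom was left. Where a gene had several probe sets, the one with the highest mean over the 10 arrays stood for it. Genes were compared when their highest level on the 4 arrays exceeded 3.67, the median over all probe sets. Levels below the median of their array cannot be separated from background here, because no detection call was used.

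Med23 itself read 5.45 in the control and 5.67 with MAL, against 4.24 in the knockdown and 3.94 in the combination. Both arrays labelled with Med23 knockdown or deficiency read lower than both others, and the non-additive value was -0.52. Mrtfa read 8.65, 8.33, 8.54 and 8.44 on the control, MAL, knockdown and combined arrays. This probe set showed no higher level with MAL, and whether it lies in the overexpressed sequence was not given in the sources used here. It therefore leaves the MAL label unchecked. Srf read 8.08, 8.11, 7.95 and 7.77 in the same order, and Elk1 read 7.23, 7.11, 6.89 and 6.71. Their non-additive values were -0.21 and -0.06. The fibroblast genes Col1a2, Sparc and Col3a1 read between 13.17 and 13.92 on all 4 arrays. Other genes of the same fibroblast matrix list differed more. Of its 30 compared genes, 6 stood at least 1 above the control with both treatments and 7 at least 1 below it. Over all genes these shares were 17.9% and 11.5%. In RNA from whole cultures, fewer cells that express a gene and less of its RNA per cell cannot be told apart.

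The control and combined arrays were the least alike pair. Over the genes compared their Pearson correlation was 0.907. The combined array correlated at 0.950 with MAL and 0.960 with the knockdown, the control at 0.965 with MAL and 0.972 with the knockdown, and MAL with the knockdown at 0.968. The combined array had the lowest poly-A controls. These controls, transcripts added to the RNA sample before labelling, had a median of 6.97 there, against 8.26 in the control, 7.61 with MAL and 7.68 with the knockdown. The hybridisation controls had medians of 9.43, 9.21, 9.27 and 9.02 in the order control, MAL, knockdown and both. Non-additive values of the 24 poly-A probe sets ran from -0.39 to 1.07 with an SD of 0.386, and those of the 18 hybridisation probe sets from -0.20 to 0.15 with an SD of 0.106. These controls carry no treatment effect. The part of RNA amount or labelling in the gene values was not tested.

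Across the 12440 genes the non-additive value had a median of -0.09, quartiles of -0.35 and 0.23 and an SD of 0.548. At least 1 was reached by 669 genes (5.38%), and at most -1 by 224 genes (1.8%). Higher values thus made up 74.9% of the calls. This share was 70.7% with the mean of all probe sets of a gene, 71.5% after quantile normalization, 84.1% after each array was centred on its median and 86.5% when additivity was defined on the linear scale. Beside them, both treatments against the control gave 2231 genes higher (17.9%) and 1436 lower (11.5%) by at least 1. Many genes lay close to the threshold, with 224 called by less than 0.1 and 288 short of it by no more than 0.1.

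MAL alone differed from the control by at least 1 upward in 536 genes (4.31%) and downward in 511 (4.11%). Beside the knockdown the same treatment gave 1046 genes higher (8.41%) and 463 lower (3.72%). These counts come from separate pairs of arrays. Of the genes higher in either pair, 230 were higher in both, which is 42.9% of those with MAL alone and 21.99% of those beside the knockdown. Of the lower genes, 241 were lower in both, 47.2% and 52.1%. The 2 sets of MAL differences had a Pearson correlation of 0.631 across the 12440 genes, which are not independent replicates. The knockdown difference, from its own pairs, gave 748 genes higher (6.01%) and 200 lower (1.61%) without MAL, and 1355 higher (10.9%) and 434 lower (3.49%) with it. Its correlation was 0.671, and 394 genes were higher in both pairs.

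**Figure D1:**
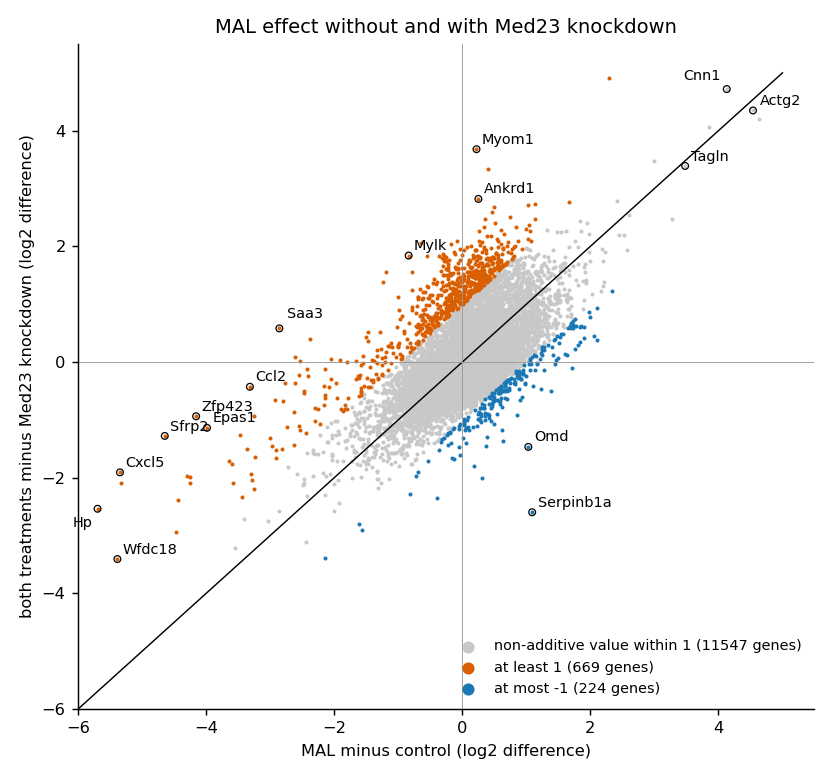
Each point is 1 of 12440 genes, with the MAL minus control difference on the x axis and the difference of both treatments minus Med23 knockdown on the y axis, both in log2 units, and the line marks equal differences. The 669 orange genes lie at least 1 above the line and the 224 blue genes at least 1 below it, while Actg2 and Tagln lie close to it.

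The genes past the threshold took a few recurring shapes. Among the 669 higher genes, 403 (60.2%) differed by less than 1 with MAL alone and stood at least 1 higher with MAL beside the knockdown. In 90 others MAL alone went with a level at least 1 lower, and that difference was smaller than 1 beside the knockdown. The combined array read above all 3 others in 547 of the 669 (81.8%), against 28.1% of all genes compared. Among the 224 lower genes, 110 passed 1 in neither MAL difference, 61 stood higher with MAL alone and less than 1 away beside the knockdown, and 47 stood lower only in the latter pair. For these the combined array read below all 3 others in 118 (52.7%), against 42.7% of all genes. Since the combined array enters the non-additive value, these positions describe the members and support nothing further.

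A gene was assigned to a single array when that array lay outside the other 3 by more than 2 times their range. Of the 669 higher genes, 290 (43.3%) were set by a high combined array, with median levels of 6.0, 6.16, 6.11 and 7.55 in the control, MAL, knockdown and combined arrays. Another 33 were set by a low MAL array and 24 by a high control array. Rsbn1, named here after its values were seen, was the 1 gene set by a low knockdown array. No single array set the remaining 321 (48.0%). Of the 224 lower genes, 36 were set by a low control array, 17 by a low combined array, 8 by a high knockdown array and 7 by a high MAL array. Over all 12440 genes, called or not, the combined array was the single high one in 557 and the single low one in 480.

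**Figure D2:**
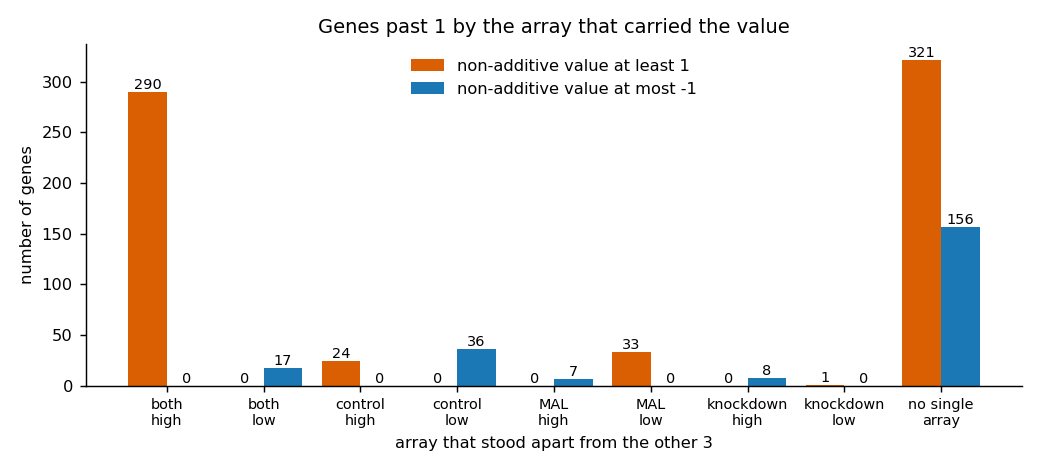
Bars give the number of genes with a non-additive value of at least 1 (orange) or at most -1 (blue), by the array that lay outside the other 3 by more than 2 times their range. The tallest single-array bar is the 290 higher genes set by a high combined array.

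Further probe sets of the same genes give a measure of probe error, although they share the 4 arrays. For 398 of the higher genes 740 further probe sets were above the median, and 594 of them (80.3%) had a positive non-additive value, 450 (60.8%) of at least 0.5. For 76 of the lower genes there were 110, of which 92 (83.6%) were negative and 65 (59.1%) at or below -0.5. Among all genes compared, 67.6% of 9396 further probe sets had the sign of the representative and 26.1% had it with a size of at least 0.5.

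The highest non-additive values included 3 genes of secreted immune mediators. Cxcl5, a neutrophil-attracting chemokine, read 9.10 in the control and 3.75 with MAL, then 9.17 with the knockdown and 7.26 with both. MAL alone was the low array, and the level with both lay between it and the other pair, giving a non-additive value of 3.44, or 10.9-fold above the additive level. Ccl2, which attracts monocytes, read 10.42, 7.10, 9.46 and 9.03 in that order, with a value of 2.89. Ccl7, a related chemokine, read 8.61, 6.23, 8.22 and 8.62, with a value of 2.78. In each of the 3, the level with MAL was the lowest and the level with both treatments was nearer to the control than to MAL alone.

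The acute-phase genes Saa3 and Hp showed 2 further shapes. Saa3, which encodes a serum amyloid protein, read 7.75, 4.89, 5.46 and 6.04. Both single treatments lay below the control by more than 2, and the combined level lay above both of them, with a non-additive value of 3.44. Hp, the gene of the haemoglobin-binding protein haptoglobin, read 9.77, 4.07, 8.86 and 6.32, with a value of 3.16. Here the combined level was still 3.45 below the control. The additive expectation of Saa3, 2.60, and of Hp, 3.16, lay below the array median, where a level cannot be separated from background. That was so for 94 of the 669 higher genes (14.1%) and for 7.27% of all genes compared, and for 17 of the 669 the expectation was under 2.20, the lowest level of any gene compared on these arrays.

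Sfrp2, Zfp423 and Epas1 were low on the MAL array alone. Sfrp2, a secreted modulator of Wnt signalling, read 8.95, 4.30, 10.61 and 9.33. Zfp423, a zinc finger factor of preadipocyte commitment, read 7.98, 3.82, 7.86 and 6.92, and Epas1, which encodes the hypoxia-inducible factor HIF-2alpha, read 8.18, 4.19, 10.07 and 8.93. Their non-additive values were 3.37, 3.22 and 2.85, and in all 3 the level with MAL was at least 3.10 below the level with both treatments. The direction for Sfrp2 and Epas1 depends on the scale. On the linear scale the values were -0.76 and -0.72. Both genes read higher with the knockdown than in the control. The second probe set of Epas1 had a value of 0.15.

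Myom1 and Mrvi1 were high on the combined array alone. Myom1, which encodes the sarcomeric protein myomesin, read 3.05, 3.27, 3.32 and 7.0, so that the other 3 arrays lay below the array median. With those levels raised to the median the non-additive value was 3.28, and as measured it was 3.46. Mrvi1, which encodes a partner of cGMP-dependent protein kinase in smooth muscle relaxation, read 4.21, 4.61, 4.0 and 7.34, with a value of 2.94 and of 1.56 on its other probe set. Neither single treatment moved either gene by more than 0.40.

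The lowest non-additive value belonged to Serpinb1a, an inhibitor of neutrophil proteases. It read 9.27 in the control and 10.36 with MAL, 8.79 with the knockdown and 6.19 in the combination, a value of -3.69, or 12.9-fold below the additive level. Its second probe set read 5.61, 7.51, 5.86 and 4.76, with a value of -3.00. On both probe sets MAL alone was the highest array and the combination the lowest. Omd, the osteoadherin of mineralised matrix, likewise read highest with MAL and lowest in the combination, with 8.93, 9.96, 8.57 and 7.10 and a value of -2.50.

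The water channel gene Aqp5 read 8.65, 8.96, 8.21 and 6.20, and Cda, the pyrimidine salvage enzyme cytidine deaminase, read 8.24, 7.85, 7.33 and 4.98. Their values were -2.32 and -1.96, each set by a low combined array. Pir, which encodes the iron-binding protein pirin, read 7.85, 8.47, 7.75 and 6.57. Trib3, a pseudokinase of the stress response, read 7.56, 8.41, 6.89 and 5.97. These gave -1.80 and -1.77, and the other probe set of Trib3 gave -1.03. Itgbl1, an integrin beta-like secreted protein, gave -2.01. Tcim read 5.46, 5.64, 6.62 and 4.82, with -1.98, but -0.53 on its other probe set. The endosomal GTPase gene Rab7b gave -1.83, with -1.37 on its other probe set.

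Serpinb9, an inhibitor of granzyme B, differed from the rest of these 10. It read 7.89, 10.0, 8.32 and 8.70, a value of -1.73, with -0.72 on its other probe set. The combined level was above the control, and it was the MAL difference of 2.11 that shrank to 0.38 beside the knockdown.

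**Figure D3:**
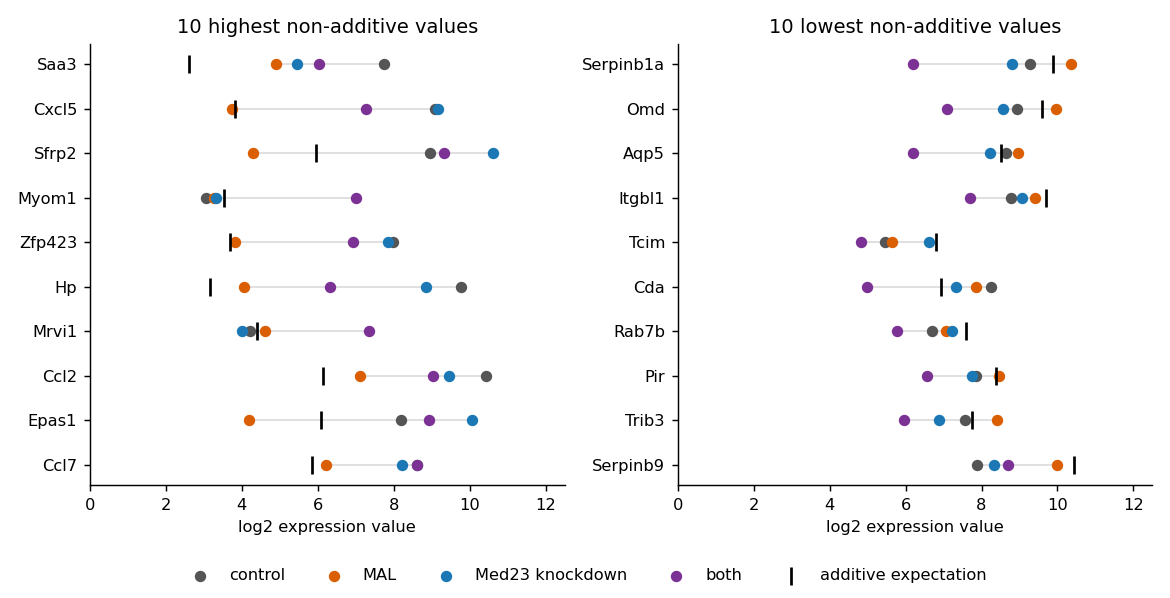
Dots give the log2 expression value of each of the 4 arrays for the 10 genes with the highest (left) and the 10 with the lowest (right) non-additive values, 1 array per condition, and the black tick is the additive expectation. The combined array (purple) lies right of the tick on the left and left of it on the right, as the selection requires, while MAL alone (orange) is the lowest array for genes such as Cxcl5, Sfrp2 and Hp.

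Smooth muscle contractile genes had a median close to the additive level on the log2 scale. Of 24 named genes of this list, 22 were compared. Both treatments stood at least 1 above the control in 15 of the 22, with a median difference of 1.59, against 17.9% of all genes. MAL alone had a median difference of 0.90, MAL beside the knockdown 1.38, and the knockdown alone 0.59. The median non-additive value was 0.07, beside -0.09 over all genes, and it was 0.00 under 2 of the alternative settings. At least 1 was reached by 3 of 22, beside 5.38% of all genes, and at most -1 by 0 of 22, beside 1.8%.

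The 3 highest named differences between both treatments and the control were in this list. Cnn1, the actin-binding protein calponin, read 3.83, 7.96, 4.89 and 9.61 in the order control, MAL, knockdown and both. That is 54.9-fold above the control, with a non-additive value of 0.59. Actg2, smooth muscle gamma actin, read 6.94, 11.48, 7.95 and 12.30, 41.1-fold above the control, with a value of -0.19. Tagln, the actin cross-linking protein transgelin, read 6.64, 10.12, 7.78 and 11.17, with a fold of 23.1 and a value of -0.09. In all 3 the order was control, knockdown, MAL, both. The knockdown difference without MAL was 1.06 in Cnn1, 1.01 in Actg2 and 1.14 in Tagln, and with MAL it was 1.65, 0.82 and 1.05. Acta2, smooth muscle alpha actin, was already at 13.44 in the control and read 13.97 with both.

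Additivity on the log2 scale is not additivity of amounts. On the linear scale, where the expected level is the sum of the single increments, 18 of the 22 genes lay above the expectation, with a median log2 excess of 0.45. Cnn1 stood 1.56 above that expectation, Tagln 0.90 and Actg2 0.76. The same readings are thus additive on one scale and above additive on the other.

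The 3 list members past 1 were Mylk, Itga8 and Kcnmb1. Mylk, the myosin light chain kinase that starts smooth muscle contraction, read 6.07, 5.23, 7.80 and 9.64. MAL alone was the lowest array and the combination the highest, with a non-additive value of 2.68. Its further probe sets gave 3.06 and 0.25. Itga8, an integrin subunit of mesenchymal cells, read 4.12, 3.78, 3.73 and 5.31, with a value of 1.92. Its additive expectation, 3.39, lay below the median over all probe sets. Kcnmb1, the beta subunit of the smooth muscle BK channel, read 3.39, 4.53, 3.73 and 6.46, with a value of 1.59, but -0.78 on its other probe set. Smooth muscle myosin heavy chain, Myh11, read between 3.55 and 3.88 on all 4 arrays, and desmin, Des, between 4.88 and 5.18.

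Of the 18 skeletal muscle marker genes, 5 were above the median. Their summed linear level over the 18 was 235, 642, 251 and 1024 in the order control, MAL, knockdown and both. Acta1, skeletal alpha actin, read 5.78, 8.78, 6.24 and 9.72, with a non-additive value of 0.48, and made up most of the sum on the MAL and combined arrays but not on the control and knockdown arrays. The defining factors Myod1 and Myog read at most 3.40 on every array, below the array medians. The marker genes Pecam1 and Cdh5 of endothelium, Ptprc and Adgre1 of macrophages and Cdh1 and Krt18 of epithelium read at most 3.56, also below the medians. Other members of those lists were above them. Among the macrophage markers, Cd14 read 8.92, 7.81, 8.09 and 6.78, and Lgmn 8.65, 8.70, 8.29 and 8.11. Epcam of the epithelial list read between 6.05 and 6.41, Cldn3 between 4.98 and 5.42, and Flt1 of the endothelial list between 4.63 and 4.78. Of the other marker lists, 6 of 15 bone and cartilage genes, 3 of 12 endothelial, 4 of 11 epithelial and 10 of 11 neural genes were compared, and Omd alone was past 1. The summed linear level of the bone and cartilage genes was 3003, 2191, 2383 and 1048 in the same order, and that of the neural genes 679, 539, 677 and 758. Their part in the smooth muscle values was not tested.

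The CArG box is the DNA element that SRF binds. It was searched on both strands, as CC, then 6 bases that are each A or T, then GG, in the 250 bases before the start of each gene in RefSeq (GRCm38.p6). It was found in 482 of 32851 windows (1.47%). Counted by gene, with a match in any of its windows, it was found for 147 of 10008 compared genes (1.47%). In the smooth muscle list it was found for 2 of 19 genes with a window. In the actin-MAL-SRF target list it was found for 7 of 24 (29.2%). Actg2 and Tagln had no window and were not searched. None of the 19 genes of the smooth muscle list held the NF-kB-type motif described below. The combined array was highest in 17 of 22 compared smooth muscle genes and in 22 of 29 actin-list genes, with or without a match. Over all genes compared this share was 28.1%. Srf, whose window held 2 matches, read lowest in the combination, and Actg1, with 1 match, read between 13.74 and 13.89. Fhl2, Fermt2 and Lima1 also held a match and read highest in the combination. The following windows hold a match, shown in capitals, and were picked because all 4 genes read highest in the combination. They belong to Myl9 (chr2:156775214-156775463, + strand) and Fhl1 (chrX:56779433-56779682, + strand) of the smooth muscle list and to Vcl (chr14:20929148-20929397, + strand) and Filip1l (chr16:57548992-57549241, + strand) of the actin list.
Myl9: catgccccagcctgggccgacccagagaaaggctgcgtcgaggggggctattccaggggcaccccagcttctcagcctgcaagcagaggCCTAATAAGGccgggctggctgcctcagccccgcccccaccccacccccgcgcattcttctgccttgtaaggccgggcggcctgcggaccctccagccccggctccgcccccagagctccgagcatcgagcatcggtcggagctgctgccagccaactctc
Fhl1: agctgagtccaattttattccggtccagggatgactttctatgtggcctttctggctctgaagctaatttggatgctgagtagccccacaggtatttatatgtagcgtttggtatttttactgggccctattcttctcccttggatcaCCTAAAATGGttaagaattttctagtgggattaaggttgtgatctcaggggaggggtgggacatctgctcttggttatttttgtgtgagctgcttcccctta
Vcl: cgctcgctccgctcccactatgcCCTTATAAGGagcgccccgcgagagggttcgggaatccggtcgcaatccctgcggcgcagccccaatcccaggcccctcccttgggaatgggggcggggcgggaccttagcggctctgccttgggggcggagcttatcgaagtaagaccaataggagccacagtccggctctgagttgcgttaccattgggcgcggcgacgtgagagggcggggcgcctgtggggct
Filip1l: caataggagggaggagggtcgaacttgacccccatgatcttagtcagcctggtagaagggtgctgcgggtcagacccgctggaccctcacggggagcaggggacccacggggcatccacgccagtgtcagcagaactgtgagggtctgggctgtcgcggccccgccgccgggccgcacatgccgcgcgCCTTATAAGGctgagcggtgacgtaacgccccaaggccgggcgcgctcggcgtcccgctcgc

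Myl9, the regulatory light chain of myosin, read 9.21, 11.73, 10.45 and 12.65, with a non-additive value of -0.32. Fhl1, a LIM protein of muscle, read 9.06, 11.63, 10.60 and 12.53, with a value of -0.64. Vcl, the adhesion protein vinculin, read 10.86, 12.13, 12.05 and 12.80, with a value of -0.52. These 3 were highest with both treatments and slightly below the additive level. Filip1l, a filamin-interacting protein, read 8.12, 8.78, 8.08 and 9.66, with a value of 0.92. The windows of Mylk, Itga8, Kcnmb1 and Cnn1 held no match. A match is a description of the sequence, and no match says only that these letters are absent from the window.

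The actin-MAL-SRF target genes, 29 of 29 named compared, had a median non-additive value of 0.01, which was -0.11 with the mean of all probe sets. Both treatments stood at least 1 above the control in 13 of them, beside 17.9% of all genes, and below it in 2, beside 11.5%. Past 1 in the non-additive value were Ankrd1 and Pdlim5 on the higher side, beside 5.38% of all genes. On the lower side were Tes and Capg, beside 1.8% of all genes. Ankrd1, a stretch-responsive muscle cofactor, read 3.07, 3.32, 2.94 and 5.76, a value of 2.57, with 2.86 on its other probe set. The other 3 arrays lay below their medians, and with those raised the value was 2.04. Pdlim5, an actinin-binding adaptor, gave 1.08, but its 5 further probe sets ran from -0.25 to 0.68. Tes, a focal adhesion protein, read 7.63, 9.63, 7.88 and 8.65, a value of -1.23 with -1.19 on its other probe set. Capg, an actin filament capping protein, read 10.21, 10.49, 9.58 and 8.78, a value of -1.08 with -0.94 on its other probe set.

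Chemokine and cytokine genes had the most positive list median on the log2 scale. Of 23 named, 15 were compared. The median level difference for MAL was -1.62 alone and -0.28 beside the knockdown, and the median non-additive value was 0.73, beside -0.09 over all genes. At least 1 was reached by 6 of 15 (40.0%), beside 5.38% of all genes, and at most -1 by none. The 6 were Cxcl5, Ccl2, Ccl7, Ccl5, Il6 and Cxcl1. Of the 15 values, 12 were above 0, beside 5068 of 12440 over all genes. On the linear scale 10 genes had a defined value, with a median of 0.29. The others, with Ccl2, Ccl5, Ccl7 and Il6 among them, had a negative linear expectation, so their levels lay above it. The median of 0.29 leaves these genes out and was therefore not ranked against other lists. Both treatments still stood at least 1 below the control in 9 of the 15, beside 11.5% of all genes, and at least 1 above it in none.

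The promoters of 4 of 10 listed genes with a RefSeq window held an NF-kB-type motif on either strand. The motif is GGG, then 2 bases of any kind, then TTTCC. Among compared genes with a window 172 of 10008 (1.72%) held it, and over all windows 464 of 32851 (1.41%). Cxcl5, Ccl2, Ccl7 and Ccl5, all past 1, had no window and were not searched. None of the 10 held a CArG box. The windows of Cxcl1 (chr5:90890995-90891244, + strand) and Il6 (chr5:30012864-30013113, + strand) belong to genes past 1, and that of Ccl9 (chr11:83578637-83578886, - strand) to a gene near the additive level. They are printed with the matches in capitals, so that a member on each side of the threshold can be seen. Csf1 held the fourth.
Cxcl1: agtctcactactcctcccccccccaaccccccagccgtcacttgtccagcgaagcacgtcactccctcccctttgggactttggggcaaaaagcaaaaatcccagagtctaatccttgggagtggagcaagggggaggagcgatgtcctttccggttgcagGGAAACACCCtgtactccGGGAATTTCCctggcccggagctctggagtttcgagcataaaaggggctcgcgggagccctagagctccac
Il6: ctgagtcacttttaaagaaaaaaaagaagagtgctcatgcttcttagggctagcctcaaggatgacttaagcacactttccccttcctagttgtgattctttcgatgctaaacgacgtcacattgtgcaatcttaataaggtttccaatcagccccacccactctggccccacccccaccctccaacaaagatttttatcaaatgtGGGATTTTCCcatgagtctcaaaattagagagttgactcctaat
Ccl9: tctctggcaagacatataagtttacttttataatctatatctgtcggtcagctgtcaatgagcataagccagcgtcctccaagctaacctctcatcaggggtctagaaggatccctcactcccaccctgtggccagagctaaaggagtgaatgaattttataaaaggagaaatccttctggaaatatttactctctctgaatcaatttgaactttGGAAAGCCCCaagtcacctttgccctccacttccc

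Cxcl1, a neutrophil chemokine, read 10.18, 7.36, 10.32 and 8.82, with a non-additive value of 1.32. Its further probe sets gave 1.12 and -0.75, so they disagree in sign. The window of Cxcl1 held 2 matches, the first 89 and the second 71 bases before the start. Il6, the cytokine interleukin 6, read 5.09, 3.47, 3.71 and 3.43, with a value of 1.34. Its additive expectation was 2.09, below the array median, and the 3 treated arrays read close together. Ccl9, a monocyte chemokine, read 8.92, 7.96, 8.05 and 6.88, with a value of -0.21, although its window held a match too. Ccl5, a T-cell chemokine, read 8.72, 6.11, 6.55 and 6.64, a value of 2.70 set by a high control array.

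The other members of the list show that its genes did not all take 1 shape. Cxcl12, the stromal chemokine that binds CXCR4, read 12.70, 11.06, 13.01 and 11.93, with a value of 0.56. Cx3cl1, fractalkine, read 8.67, 6.80, 8.61 and 6.89, close to additive with 0.15. Ptgs2, the prostaglandin synthase COX-2, read 5.78, 6.92, 5.69 and 6.17 and had the lowest value, -0.66. Of the 12 macrophage markers, 6 were above the median, and their summed linear level was 1018, 766, 720 and 521 in the order control, MAL, knockdown and both. Its part in the chemokine values was not tested.

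Cholesterol synthesis genes had the most negative list median, -0.96. All 20 of the 20 compared genes lay below 0, beside 7265 of 12440 over all genes. At most -1 was reached by 8 of 20 (40.0%), beside 1.8% of all genes, and at least 1 by none. On the linear scale the median was -0.59 over the 18 genes with a defined value. Of these, 5 were at most -1, 1 at least 1 and 3 above 0. Tm7sf2 and Dhcr7 had a negative linear expectation and so no defined value, and both lay above that expectation. The median MAL difference was 0.11 alone and -0.96 beside the knockdown, and the median knockdown difference was -0.21 alone and -1.16 beside MAL. Both treatments stood at least 1 below the control in 10 of the 20, beside 11.5% of all genes, with a median of -1.06. The combined array was the lowest of the 4 in 14 of the 20, beside 42.7% of all genes.

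Along the pathway, the early enzymes read as follows. Hmgcs1, which makes the HMG-CoA of the mevalonate route, read 10.52, 11.06, 11.20 and 11.29 and stood close to additive at -0.45. Mvk, mevalonate kinase, read 9.44, 8.89, 8.35 and 7.02, a value of -0.78. Mvd, mevalonate decarboxylase, read 9.62, 8.84, 8.57 and 6.80, a value of -0.99. Idi1, the isomerase of the next step, read between 8.28 and 8.60 on the 4 arrays, with -0.05. Fdps, farnesyl diphosphate synthase, read 11.74, 11.75, 11 and 9.68, with -1.33. Fdft1, squalene synthase, read 11.64, 11.80, 11.41 and 10.28, with -1.29, and its further probe sets gave -0.94 and -1.11.

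The later sterol-forming enzymes were below the additive level too on the log2 scale. Cyp51, the lanosterol demethylase, read 9.90, 10.52, 10.08 and 9.30, a value of -1.40, with -1.66 and -0.31 on its further probe sets. Lss, lanosterol synthase, read 9.34, 9.10, 8.65 and 7.39, a value of -1.02, with -0.76 and -1.52. Tm7sf2, a sterol reductase, read 10.04, 9.31, 8.59 and 6.62, with -1.24. The combined level of Tm7sf2 was 10.7-fold below the control. Hsd17b7 and Nsdhl gave -1.09 and -1.07, and Msmo1, a sterol methyl oxidase, gave -0.16.

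Regulators of the pathway followed the same sign. Insig1, which retains the SREBP processing complex in the endoplasmic reticulum when sterols are plentiful, read 9.0, 9.08, 9.38 and 8.25, with -1.21. Srebf2, the gene of the transcription factor SREBP2 that drives these enzymes, read 9.74, 9.46, 9.05 and 8.36, with -0.41. The sterol response motif TCACNCCAC was found in 346 of 32851 windows (1.05%). Counted by gene, it was found for 125 of 10008 compared genes (1.25%) and for 1 of 16 genes of the list, Hmgcs1. With the mean of all probe sets the values of Fdps, Fdft1 and Hsd17b7 were -0.56, -0.80 and -0.73, inside the threshold.

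**Figure D4:**
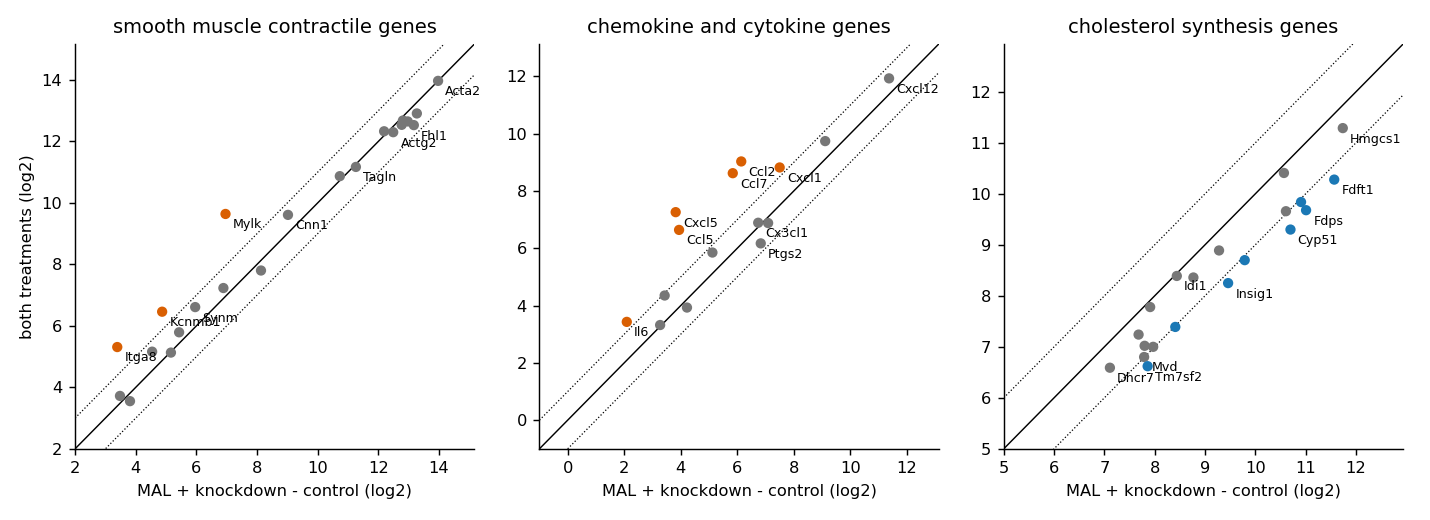
For the smooth muscle, chemokine and cytokine, and cholesterol synthesis lists, the log2 level with both treatments (y axis) is plotted against the level expected from adding the single treatments (x axis). Each point is 1 gene, the solid line is equality, the dotted lines are 1 above and below it, and orange and blue mark genes past 1. Of 22 smooth muscle genes 3 lie above the upper dotted line and none below the lower one. Of 15 chemokine genes 12 lie above the solid line, 6 of them past the upper dotted line. All 20 cholesterol genes lie below the solid line, 8 of them past the lower dotted line.

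Extracellular matrix genes of fibroblasts had a median of 0.30 over 30 genes, beside -0.09 over all genes. At least 1 was reached by 4, beside 5.38% of all genes, and at most -1 by none, beside 1.8%. Postn, the matricellular protein periostin, read 9.90, 9.70, 9.61 and 11.14, a value of 1.73 set by a high combined array. Tnc, tenascin C, read 8.02, 7.67, 8.58 and 9.55, with 1.32. The small proteoglycan genes Dcn and Lum had high control arrays instead. Dcn read 9.66, 7.19, 6.93 and 6.43, with 1.97, and Lum read 5.82, 3.76, 3.34 and 3.05, with 1.77. The additive expectation of Lum was 1.28, under 2.20, the lowest level of any gene compared, so its value cannot be separated from background. Dcn was 9.38-fold below the control with both treatments, so a positive non-additive value here accompanied a low combined level.

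TGF-beta and Notch target genes had a median of 0.02 over 22 genes, and of -0.02 on the linear scale where defined. At least 1 was reached by 3, beside 5.38% of all genes. Inhba, the activin A subunit, read 5.70, 6.20, 5.71 and 7.51, with 1.30. Tgfb2, a TGF-beta ligand, read 7.47, 6.47, 8.83 and 9.10, with 1.27 and with 0.98 to 1.22 on its 3 further probe sets. Notch3, a receptor of vascular smooth muscle, read 7.07, 5.58, 6.44 and 6.17, with 1.22. Bmpr1a, a BMP receptor named after its values were seen, read 7.56, 7.25, 7.10 and 8.97, a value of 2.18. Its 5 further probe sets ran from 0.14 to 2.38.

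p53 pathway genes had a median of 0.33 over 15 genes. At least 1 was reached by 4, beside 5.38% of all genes, and at most -1 by 1, beside 1.8%. Mdm2, the ubiquitin ligase that restrains p53, read 6.64, 6.80, 7.48 and 8.85, with 1.21. Trp53inp1, a p53-induced nuclear protein, read 8.49, 8.42, 8.55 and 9.86, with 1.38. Polk, a translesion polymerase, gave 1.33 and the death receptor gene Fas 1.21. Sesn1, a stress-induced sestrin, gave -1.12, with -1.39 and -1.15 on its further probe sets. Cdkn1a, the cell cycle inhibitor p21 and a main p53 target, read between 11.15 and 11.63, with 0.39. With the mean of all probe sets, Mdm2, Trp53inp1 and Polk had values of 0.56, 0.68 and 0.73.

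ER stress and ATF4 genes had a median of -0.31 over 25 genes, with 22 below 0, beside 7265 of 12440 over all genes. Trib3 alone was past -1, beside 1.8% of all genes. Hspa5, the chaperone BiP, read 10.80, 11.49, 11.93 and 11.73, with -0.89, and Ddit3, the stress factor CHOP, read 8.55, 9.48, 9.33 and 9.42, with -0.84. For both genes, all 3 treated arrays lay above the control, and the combination lay below the higher single treatment.

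Adipocyte genes had a median of -0.14 over 20 genes, and of 0.04 on the linear scale over those with a defined value. Zfp423 was the only one past 1, beside 5.38% of all genes at least 1. Both treatments stood at least 1 below the control in 9 of the 20, beside 11.5% of all genes. Cebpa, a factor of fat cell differentiation, read 7.66, 6.34, 7.19 and 5.99, with 0.12, and Pparg, the central factor of that differentiation, read 6.67, 6.35, 6.87 and 6.28, with -0.27. Immediate-early transcription factor genes had a median of -0.18 over 25 genes, and of 0.11 on the linear scale over those with a defined value. Klf10 was past 1 at -1.03, beside 1.8% of all genes at most -1. The 33 compared Mediator subunit genes had a median of -0.09. Med14 and Med13 were past 1 at 1.42 and 1.1, beside 5.38% of all genes at least 1. Further probe sets gave 2.16 and -0.52 for Med13, and -0.43, 0.35 and 0.18 for Med14.

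None of the 35 S phase and mitosis genes, the 13 ribosomal protein genes and the 6 genes of SRF and its cofactors were past 1. Their medians were -0.05, -0.04 and 0.01. Over all genes, 5.38% stood at least 1 and 1.8% at most -1. Of 11 housekeeping genes Polr2a, the largest RNA polymerase II subunit, was past 1 at 1.08, with 0.21 on its other probe set. Interferon-stimulated genes had a median of 0.06 over 32 genes, and of -0.13 on the linear scale over those with a defined value. Ifit2, Psmb9, Iigp1 and Dhx58 stood at 1.5, 1.39, 1.12 and 1.12, and Isg20 at -1.24. The additive expectations of Psmb9 and Dhx58, 3.44 and 3.17, lay below 3.67, the median over all probe sets.

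**Figure D5:**
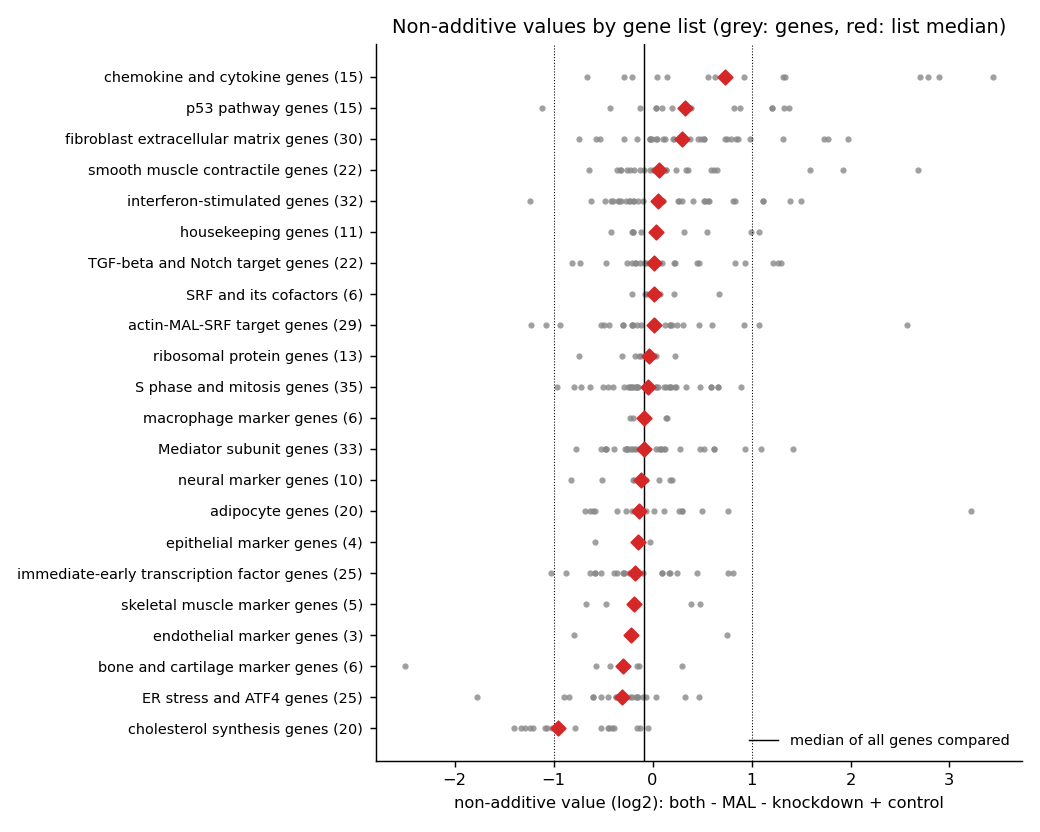
Grey dots are the non-additive values of single genes (log2, x axis) in each of 22 gene lists, red diamonds are list medians, and the number of genes compared is in parentheses. The black line is the median of all 12440 genes and the dotted lines mark -1 and 1. Cholesterol synthesis genes lie at the lower end with a median of -0.96 and chemokine and cytokine genes at the upper end with 0.73.

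Genes with the largest combined loss showed both additive and non-additive patterns. Wfdc18, a secreted protease inhibitor of the WAP family, read 12.20, 6.81, 10.31 and 6.90, a combined difference of -5.30. The knockdown stood 1.89 below the control alone but 0.09 above MAL in the combination, for a non-additive value of 1.98. Il1rn, the interleukin 1 receptor antagonist, read 11.07, 9.50, 8.89 and 5.98. Its combined difference was -5.09 and its value -1.34, with -0.87 on both further probe sets. The linear expectation of Il1rn was negative, so on that scale its level lay above the expectation. Penk, the enkephalin precursor, and Slpi, a leukocyte protease inhibitor, stood at -4.98 and -4.55 against the control, with 0.65 and 0.34.

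For Igf1 and Tgfbi, the remaining members of this group, the probe sets disagreed. Igf1, insulin-like growth factor 1, read 9.34, 7.01, 6.25 and 4.27, with a value of 0.35. Its 3 further probe sets gave 2.26, 2.42 and 2.45, with MAL and knockdown levels 2.91 to 3.49 below the control and combined levels 0.90 to 0.94 below the knockdown. Tgfbi, a matrix protein induced by TGF-beta, gave 0.45, and 2.74, 0.00 and -0.01 on its further probe sets. Among the highest combined differences instead, Pilra, an immune receptor gene, read 3.50, 5.79, 2.74 and 7.65, a value of 2.62. Levels in the control and knockdown lay below the array median, and with these raised the value was 1.84.

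Msrb3, a methionine sulfoxide reductase, and Itga1, a collagen-binding integrin, complete the 6 highest combined differences. Msrb3 read 6.81, 9.02, 9.43 and 10.82, 4.01 above the control and 0.82 below the additive level. Itga1 read 4.53, 6.20, 6.50 and 8.49, 3.96 above the control, with 0.32. For both, the knockdown alone stood further from the control than MAL alone.

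Examples of the single-array shapes, chosen after their values were seen, show what each contains. Lpp, a zyxin-related protein of focal adhesions, read 7.61, 8.07, 8.35 and 10.95, with 2.14, and its 7 further probe sets ran from -0.22 to 1.49. Xpr1, a phosphate exporter, read 5.27, 5.77, 5.64 and 8.32, with 2.18 and a range of 0.21 to 1.2 on 5 further probe sets. Cp, the copper protein ceruloplasmin, was low on the MAL array with 8.99, 6.45, 9.07 and 9.09, a value of 2.56, and its 4 further probe sets lay between 2.65 and 2.83.

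Low control arrays and low combined arrays supplied the other side. Insig2, a relative of Insig1, read 6.92, 8.68, 8.36 and 8.58, a value of -1.54, with -2.40 and -1.22 on 2 further probe sets. Any single treatment gave nearly the level of the combination. Nqo1, the quinone reductase of the antioxidant response, read 9.19, 9.15, 8.88 and 7.27, a value of -1.57, low with both treatments and little different with either alone. Bcat1, a branched-chain aminotransferase, was high on the MAL array with 6.57, 7.68, 6.78 and 6.37, a value of -1.52, but its other probe set gave -0.20.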

How the data were processed

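Biotin-labelled RNA of 10 cultures was read on Affymetrix mouse arrays, per the labels' protocols. The authors deposited log2 values of 45101 probe sets. The tools RMA and MAS5 are named, per the submitters' processing notes, without roles or versions, and joint or separate normalization of the arrays was not given in the sources used here. Names came from the platform annotation, updated to RefSeq (GRCm38.p6) through the identifier for 34741 of the 34945 probe sets with 1 symbol. Another 932 had several symbols, 9160 none, and 64 were array controls.

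Differences were computed with pandas 2.3.3 and numpy 2.4.6 in Python 3.11.15 and checked on simulated data. With 1 array per condition there was no test, and precision is limited by the number of arrays. The named genes were the 10 highest and 10 lowest non-additive values past 1 as measured and with levels below the array median raised to it, and the 6 highest and 6 lowest differences of both treatments from the control by the same rule. Names of clones, predicted genes and ESTs were passed over. Med23, Mrtfa, Srf, Elk1, list members past 1 and members that define a list were named too, and further list members and examples were chosen after their values were seen. The members and the 22 gene lists (463 of 506 entries had a named probe set) were chosen with earlier results of these data known. Alternatives were quantile normalization, centring, other filters, other probe sets of a gene and additivity on the linear scale.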

Additional observations from a re-analysis of the deposited data

Results flagged for a closer look

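For 6 genes an effect had opposite directions without and with the other treatment, each by at least 1, and none of these differences could be tested with 1 array per condition. The MAL difference of Serpinb1a was 1.09 alone and -2.60 beside the knockdown (non-additive value -3.69), and that of Omd was 1.03 and -1.47 (-2.50). It ran the other way in Lifr, the receptor of leukemia inhibitory factor, with -1.2 and 1.55 (2.75), in Plagl1, an imprinted zinc finger gene, with -1.24 and 1.39 (2.63), and in Armcx4, with -1.0 and 1.12 (2.12). The second probe set of Lifr gave a non-additive value of -0.02. For Saa3 it was the knockdown difference that turned, from -2.29 alone to 1.15 beside MAL (3.44).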

How the results depend on the processing

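With the mean of all probe sets of a gene, 347 genes were at least 1 and 144 at most -1 in the non-additive value, and both treatments stood higher than the control in 1445. On the linear scale 138 genes were at most -1, and the values of Sfrp2 and Epas1 turned to -0.76 and -0.72. The chemokine median there was 0.29 over the genes with a defined value only. Under 2 alternatives chosen after seeing the data, a size of 1.5 in place of 1 left 204 and 26 genes, and leaving out genes set by the combined array alone left 379 higher genes. Of 75 named values, the mean of all probe sets brought 18 inside the threshold. No paired analysis was possible because each condition had 1 array and the labels carry no replicate numbers. Leaving out an array leaves no non-additive value, and without replicates no count has an error.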
